A study of Homo sapiens with 9 samples.

Results

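The 38 genes described here encode proteins of the lysosome and of autophagy. They were chosen by symbol: 2 transcription factors of the MiT/TFE family, 19 lysosomal proteins and 17 autophagy proteins. All 38 were found among the 17518 genes of the deposited table of normalized counts, and all 38 passed the filter on low values that left 17514 genes to test. The cells were COR-L279, an established line of human small cell lung cancer (SCLC) in which NEUROD1, a neurogenic factor, marks the SCLC-N subtype. Their genotype is given as wild type, and all groups came from this 1 line. The 3 groups were cells kept for 24 h with 1.5 µM JQ1, with 0.5 µM JQ1 or with DMSO, the vehicle, and each group held 3 libraries that the labels call biological replicates. JQ1 is a small molecule that displaces BET bromodomain proteins from acetylated chromatin.

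Lysosomes are acidic organelles in which hydrolases break down proteins, sugars and lipids, and membrane proteins carry the products out. In autophagy, a ULK kinase complex and a class III PI3-kinase complex start a double membrane, WIPI proteins read its lipid, and a conjugation system attaches proteins of the ATG8 family to it before it fuses with a lysosome. TFEB and TFE3 bind a palindromic E-box, the CLEAR motif, at many of these genes when they enter the nucleus, which is set mainly by phosphorylation through mTORC1 rather than by their own mRNA.

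The libraries held 60721187 to 88482001 reads in genes. The 6 SCLC-N markers fixed for the check (NEUROD1, INSM1, CHGA, SYP, NCAM1, DDC) were all well expressed, DDC being the lowest at 3326, 3247 and 3202 normalized counts with 1.5 µM JQ1, against 11216, 11329 and 11279.5 in DMSO. At 1.5 µM against DMSO, NEUROD1 and NCAM1 were higher (log2 fold changes 0.48 and 0.67). CHGA, SYP and DDC were lower (-0.44, -0.35 and -1.79), and INSM1 did not pass (0.0070). HEXIM1, a widely used marker of BET inhibition, had a log2 fold change of 2.63 at 1.5 µM and 2.29 at 0.5 µM. Of 6 markers of leukocytes, fibroblasts and endothelium, 5 were listed in the FPKM table (fragments scaled to transcript length and library size) and 2 in the count table. PECAM1, the marker of endothelium, was in neither, so endothelium was not covered. The summed level of the 5 was 5.22 to 6.17 FPKM at 1.5 µM, 5.78 to 6.87 at 0.5 µM and 15.04 to 16.38 in DMSO. Most of it was COL1A2, a collagen chain. Without COL1A2 the sum was 0.76 to 1.13 FPKM at 1.5 µM, 0.78 to 0.87 at 0.5 µM and 0.37 to 0.74 in DMSO. The part of COL1A2-expressing cells in the results was not tested. In bulk RNA, fewer cells of a type and less RNA per cell cannot be told apart. In 3 libraries, 1.5 µM replicates 1 and 2 and 0.5 µM replicate 3, the imprinted RNA H19 stood at 1476 to 2071 normalized counts, against 1.04 to 82.8 in the other 6, and SLC2A3, a glucose transporter, at 390 to 489 against at most 3.52. Member totals without these 3 libraries are given beside those with all 9, although the 1.5 µM group then held 1 library.

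RefSeq promoter windows (GRCh38.p14, 250 bases before to 50 after the start) were at hand for 33 of the 38 genes, 40 windows in all. A gene was counted once if any of its windows held the motif, so genes with more windows had more room for a match. The 7 letters TCACGTG, the core of the CLEAR motif, stood on either strand for 7 of these 33 genes. They were NEU1, CTSD, CTSA, LAMP1, GAA, MCOLN1 and ATG14. This is 21.2%, against 746 of 10716 tested genes with a window, 6.96%. The 8-letter palindrome TCACGTGA, which contains the first motif on both strands, stood for 4 genes (LAMP1, GAA, MCOLN1, CTSA), 12.1% against 2.09%. The shorter CACGTG within both stood for the same number of members as the first motif, 21.2% against 12.4%. The CLEAR motif is known from many of these genes, so a higher share among them was likely in advance. The differences between these shares were not tested and are no result of the JQ1 data. The 4 stretches below, each 250 bases before the start and 20 after it, are shown because their genes moved in different directions: NEU1 (chr6:31862802-31863071, reverse strand), CTSA (chr20:45891085-45891354, forward strand), CTSD (chr11:1763908-1764177, reverse strand) and LAMP1 (chr13:113296989-113297258, forward strand). Capitals mark TCACGTG or its reverse complement.
NEU1: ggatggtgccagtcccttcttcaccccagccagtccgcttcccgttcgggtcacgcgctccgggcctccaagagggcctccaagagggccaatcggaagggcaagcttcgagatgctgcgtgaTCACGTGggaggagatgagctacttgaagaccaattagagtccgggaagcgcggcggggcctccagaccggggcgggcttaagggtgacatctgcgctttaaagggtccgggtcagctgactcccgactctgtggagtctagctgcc
CTSA: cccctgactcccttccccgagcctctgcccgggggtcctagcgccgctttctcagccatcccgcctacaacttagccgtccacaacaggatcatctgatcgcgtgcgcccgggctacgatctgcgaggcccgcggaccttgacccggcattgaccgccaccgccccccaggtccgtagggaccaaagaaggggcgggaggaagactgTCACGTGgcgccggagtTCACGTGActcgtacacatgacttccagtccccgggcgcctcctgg
CTSD: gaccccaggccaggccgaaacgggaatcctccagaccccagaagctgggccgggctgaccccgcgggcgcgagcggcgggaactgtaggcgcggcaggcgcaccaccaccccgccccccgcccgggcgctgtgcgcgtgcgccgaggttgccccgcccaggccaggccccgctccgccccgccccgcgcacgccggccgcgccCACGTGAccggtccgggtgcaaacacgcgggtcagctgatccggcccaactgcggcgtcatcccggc
LAMP1: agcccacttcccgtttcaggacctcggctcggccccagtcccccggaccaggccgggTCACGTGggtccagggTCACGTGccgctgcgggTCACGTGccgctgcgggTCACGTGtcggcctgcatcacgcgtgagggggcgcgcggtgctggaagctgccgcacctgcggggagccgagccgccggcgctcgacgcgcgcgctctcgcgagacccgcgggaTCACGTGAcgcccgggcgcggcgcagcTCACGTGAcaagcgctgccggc
LAMP1 held 6 separate matches in its window, CTSA 2, and NEU1 and CTSD 1 each. The single match of NEU1 lay 127 bases before its start, and the first of LAMP1 193 bases before. With 1.5 µM JQ1 the log2 fold change was 1.08 for NEU1, -0.47 for CTSA, -0.43 for CTSD and -0.051 for LAMP1, which did not pass the test. Of the 7 genes with the motif, 3 were higher at 1.5 µM (NEU1, GAA, MCOLN1), 2 lower (CTSA, CTSD) and 2 did not pass (LAMP1, ATG14). Of all genes tested, 36.9% were higher and 36.2% lower at this dose. The GAA and MCOLN1 calls were lost on FPKM values and under upper-quartile scaling, where LAMP1 passed as lower. The median of the 7 genes was -0.051. The median over the 746 tested genes with the motif was 0.032, and over those without it 0.0097. A match is a description of these letters, not evidence that a factor binds there.

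Across the 38 genes, JQ1 at 1.5 µM against DMSO gave 18 that were higher (47.4%) and 11 that were lower (28.9%), and 9 did not pass. Of all 17514 genes tested, 36.9% were called higher and 36.2% lower at this dose, so a call by itself says little about a member; the difference between these shares was not tested. At 0.5 µM against DMSO, 18 members were higher and 10 lower (47.4% and 26.3%), beside 35.3% and 34.7% of all genes. The median log2 fold change of the members was 0.10 at 1.5 µM and 0.092 at 0.5 µM, beside -0.0030 and -0.010 over all genes. At 1.5 µM, 4 members rose at least 2-fold (ULK2, FUCA1, NEU1, ULK1) and 2 fell as far (FUCA2, CTSZ). Calls came from limma on log2(normalized count + 1) at an adjusted p under 0.05, and for every call among the members in each of the 3 comparisons, the 2 groups compared did not overlap in any library. The same held for 99.3% of all genes called at 1.5 µM, 97.4% of those called at 0.5 µM and 2232 of the 2233 called between the doses, so it says nothing particular of the members. Under upper-quartile scaling in place of the authors' scaling, 14 members were higher and 13 lower at 0.5 µM, and over all genes tested the shares moved the same way, to 31.8% higher and 38.6% lower. Without the 3 libraries with H19 and SLC2A3, 13 members were higher and 10 lower at 1.5 µM, beside 30.3% and 30.6% of all genes, and 15 higher and 10 lower at 0.5 µM, beside 32.1% and 31.8% of all genes.

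**Figure D1:**
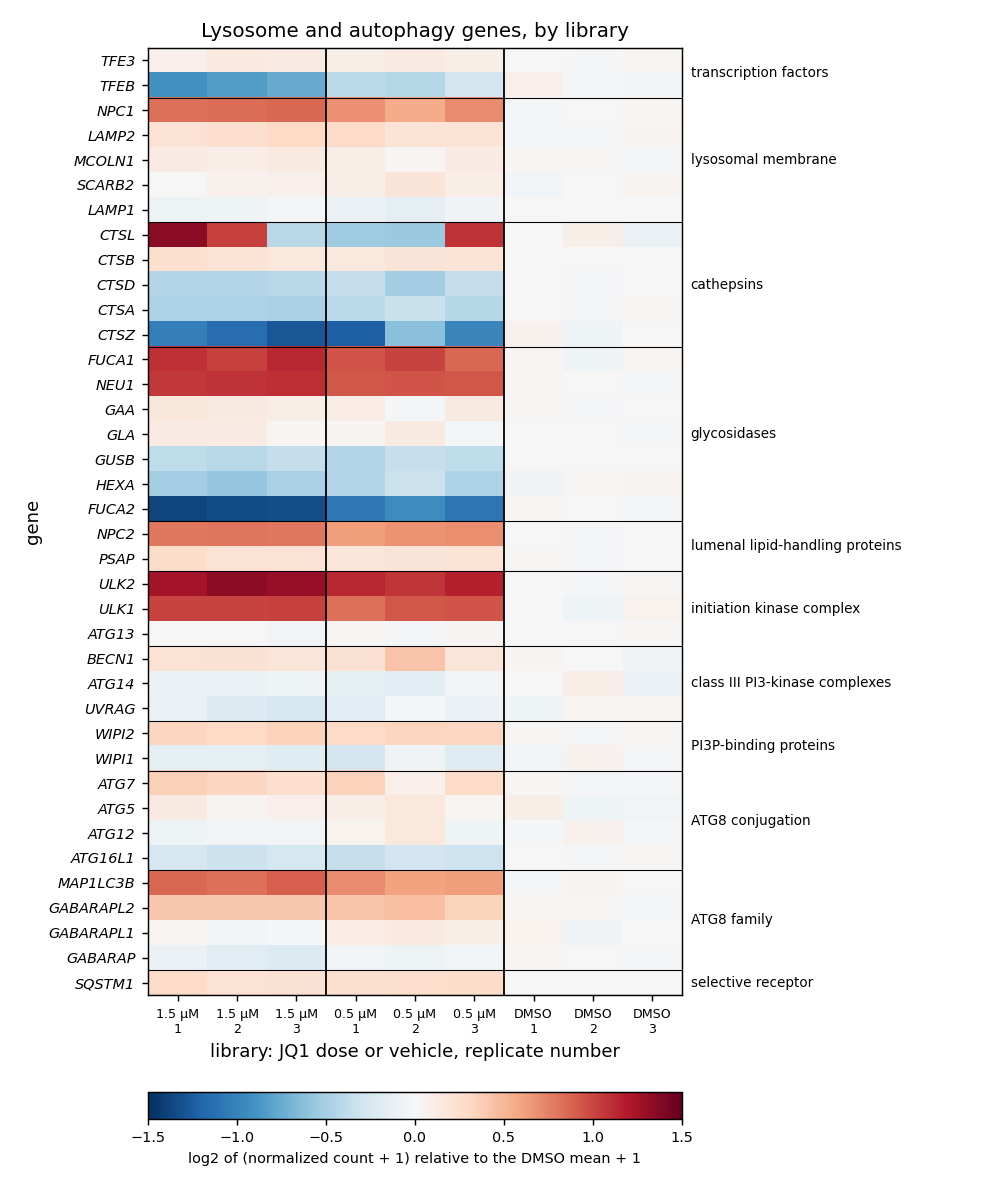
Each row is 1 of the 38 genes, grouped by role, and each column 1 of the 9 libraries; colour gives the log2 of (normalized count + 1) relative to the DMSO mean + 1 (red higher, blue lower). ULK1, ULK2, NEU1, FUCA1, NPC1, NPC2 and MAP1LC3B are red in all 6 JQ1 libraries, FUCA2 and CTSZ are blue in all 6, and CTSL splits within each JQ1 group.

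The comparisons of the doses with DMSO share their DMSO libraries, so their calls are set side by side and not counted as separate evidence. At both doses 16 members were higher and 9 were lower, beside 33.2% of all genes tested that were higher and 31.9% that were lower at both. MCOLN1 and GAA were called higher at 1.5 µM alone, UVRAG and GABARAP lower at 1.5 µM alone, SCARB2 and GABARAPL1 higher at 0.5 µM alone, and LAMP1 lower at 0.5 µM alone. The 6 members that passed at neither dose were CTSL, GLA, ATG13, ATG14, ATG5 and ATG12. None of these splits by dose passed a test of 1.5 µM against 0.5 µM, and under upper-quartile scaling LAMP1, UVRAG and GABARAP were lower at both doses.

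The 2 transcription factors moved in opposite directions. TFEB (ENSG00000112561.13) stood at 303, 318 and 338 normalized counts at 1.5 µM, 436, 423 and 469.8 at 0.5 µM and 599, 557 and 555 in DMSO. The 3 groups did not overlap, and the order ran 1.5 µM lowest, DMSO highest. TFEB fell at both doses, with log2 fold changes (limma, with SE) of -0.83 ± 0.070 at 1.5 µM (adjusted p = 1.41e-06) and -0.37 ± 0.070 (adjusted p = 0.000875) at 0.5 µM, so that 1.5 µM left 0.561 of the DMSO level. TFE3 (ENSG00000068323.12) stood at 3053, 3224 and 3165 at 1.5 µM, 3086, 3151 and 3092 at 0.5 µM and 2909, 2837 and 2966 in DMSO. All 6 JQ1 libraries lay above all DMSO libraries, by a small margin, with log2 fold changes of 0.12 ± 0.034 (adjusted p = 0.011) and 0.10 ± 0.034 (adjusted p = 0.0256). These calls did not pass at 1.5 and 0.5 µM on FPKM values (0.061 and 0.065), under upper-quartile scaling (0.065 and 0.045) or without the 3 libraries that stand apart (0.124 and 0.103). They also rested on single libraries: at 1.5 µM it was lost without DMSO replicate 2 (0.099, adjusted p = 0.0536) or 1.5 µM replicate 2 (0.098, adjusted p = 0.0514), and at 0.5 µM without DMSO replicate 1 (0.10, adjusted p = 0.0556) or 2 (0.082, adjusted p = 0.104). Per length, TFE3 was the more abundant of the pair, 13.99 ± 0.276 FPKM at 1.5 µM, 14.03 ± 0.180 at 0.5 µM and 13.4 ± 0.337 in DMSO, where TFEB had 2.39 ± 0.188, 3.36 ± 0.487 and 4.45 ± 0.338 FPKM (SD, n = 3). Of the other MiT/TFE genes, MITF rose to 134 ± 20.3 normalized counts at 1.5 µM and 121 ± 9.06 at 0.5 µM, against 63.8 ± 8.97 in DMSO (SD, n = 3; log2 fold changes 1.06 ± 0.156 and 0.92 ± 0.156), and TFEC was listed at 0 FPKM in all 9 libraries. On FPKM values the MITF change at 0.5 µM did not pass (0.72, adjusted p = 0.0662).

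Among the 5 lysosomal membrane proteins, NPC1, which moves cholesterol out of the lysosome, changed most. It had 5449.9, 5471 and 5551 normalized counts at 1.5 µM, 4946, 4517 and 5029 at 0.5 µM and 3010.3, 3054 and 3134 in DMSO. The JQ1 libraries lay far above the DMSO libraries, and the 2 doses did not overlap each other. NPC1 rose 1.79-fold at 1.5 µM (log2 fold change 0.84 ± 0.042, adjusted p = 2.43e-08) and 1.57-fold at 0.5 µM (0.65 ± 0.042, adjusted p = 2.38e-07). LAMP2, one of the main glycoproteins of the lysosomal membrane and part of chaperone-mediated autophagy, rose by 0.26 ± 0.035 and 0.23 ± 0.035 at the 2 doses. Its relative LAMP1 had -0.051 at 1.5 µM (adjusted p = 0.156) and -0.092 at 0.5 µM (adjusted p = 0.0213). The first passed on FPKM values (-0.11, adjusted p = 0.018) and under upper-quartile scaling (-0.102, adjusted p = 0.0201). The second was lost without DMSO replicate 1 (-0.089, adjusted p = 0.0561) or 2 (-0.090, adjusted p = 0.0631). MCOLN1, a calcium channel of the lysosome, had 0.12 at 1.5 µM (adjusted p = 0.0167) and 0.086 at 0.5 µM, which did not pass. Its call at 1.5 µM was lost on FPKM values (0.0165, adjusted p = 0.804), under upper-quartile scaling (0.0682, adjusted p = 0.169), without the 3 libraries that stand apart (0.133, adjusted p = 0.11). It was also lost without DMSO replicate 3 (0.10, adjusted p = 0.0606) or 1.5 µM replicate 3 (0.11, adjusted p = 0.0554). Without 0.5 µM replicate 2 the value at 0.5 µM passed (0.11, adjusted p = 0.0117). SCARB2, which brings glucocerebrosidase to lysosomes, had 0.045 at 1.5 µM and 0.13 at 0.5 µM (adjusted p = 0.0116), and under upper-quartile scaling the first of these turned to -0.0055 and the second did not pass (0.0767, adjusted p = 0.0606). On FPKM values the second did not pass either (0.101, adjusted p = 0.0979).

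Of the 5 cathepsins, the lysosomal proteases, CTSZ, CTSD and CTSA were lower at both doses, CTSB was higher at both and CTSL passed at neither. Of all genes, 36.2% were lower at 1.5 µM and 34.7% at 0.5 µM, and the difference between these shares and the cathepsins was not tested. CTSZ, a carboxypeptidase, had 339, 311 and 282 normalized counts at 1.5 µM, 296, 447 and 347 at 0.5 µM and 723, 662 and 685 in DMSO. No JQ1 library reached the DMSO range, and the 0.5 µM libraries spread most. The log2 fold changes were -1.15 ± 0.133 (adjusted p = 1.69e-05) and -0.94 ± 0.133 (adjusted p = 9.24e-05). CTSD, the main aspartic protease of lysosomes, fell by 0.43 ± 0.043 and 0.41 ± 0.043 on the log2 scale, to 7208 ± 64.4 normalized counts at 1.5 µM and 7335 ± 479.8 at 0.5 µM, against 9743 ± 76.8 in DMSO (SD, n = 3). CTSA, known as the protective protein because NEU1 needs it for its stability and activity, had 3637, 3636 and 3566 at 1.5 µM, 3833, 3976 and 3716 at 0.5 µM and 5022, 4945 and 5069 in DMSO. It is shown by library because it was picked out after its values were seen. Both JQ1 groups lay well below DMSO, with log2 fold changes of -0.47 ± 0.033 and -0.38 ± 0.033. CTSB, a cysteine protease, had 3955, 3859 and 3722 at 1.5 µM, 3723, 3819.8 and 3850.0 at 0.5 µM and 3323, 3356 and 3359 in DMSO, a rise of 0.20 ± 0.033 (adjusted p = 0.000263) and 0.18 ± 0.033 (adjusted p = 0.000582). Per length, the 5 cathepsins summed to 121.9 ± 2.78 FPKM at 1.5 µM and 124.9 ± 3.97 at 0.5 µM, against 159 ± 1.11 in DMSO (SD, n = 3). The share of CTSB in that sum was 24.9% ± 0.210 at 1.5 µM and 24.9% ± 0.334 at 0.5 µM, against 16.8% ± 0.614 in DMSO.

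CTSL, another cysteine protease, did not follow the treatment. It stood at 271, 217 and 79 normalized counts at 1.5 µM, 72.6, 71.6 and 224 at 0.5 µM and 105, 113 and 98.8 in DMSO. It is shown by library because of this spread, seen in the values. The 3 high libraries were 1.5 µM replicates 1 and 2 and 0.5 µM replicate 3, those that also held H19 and SLC2A3, and the other 3 JQ1 libraries lay below all DMSO libraries. The fit over all libraries gave 0.66 ± 0.493 at 1.5 µM (adjusted p = 0.251), and at 0.5 µM a value near 0 with the same SE. Without the 3 libraries the log2 fold changes were -0.41 at 1.5 µM (adjusted p = 0.103) and -0.54 at 0.5 µM (adjusted p = 0.0173), and without 1.5 µM replicate 3 alone the value at 1.5 µM was 1.19 (adjusted p = 0.0321). Of the fibroblast markers, DCN moved with the same 3 libraries. It had 0.41, 0.40 and 0.02 FPKM at 1.5 µM, 0, 0 and 0.41 at 0.5 µM and 0 in DMSO. COL1A1 had 112, 96.7 and 87.2 normalized counts at 1.5 µM, 92.3, 89.2 and 107 at 0.5 µM and 106, 115 and 96.9 in DMSO. COL1A2 had 1680, 1593 and 1344 at 1.5 µM, 1662, 1540 and 1873 at 0.5 µM and 3921, 3972 and 3924 in DMSO. For both, the same 3 libraries were the highest within each JQ1 group. The FPKM values of COL1A1 did not keep this order (0.24, 0.41 and 0.39 at 1.5 µM, 0.36, 0.40 and 0.32 at 0.5 µM). The part of other cells in the CTSL values was not tested.

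**Figure D2:**
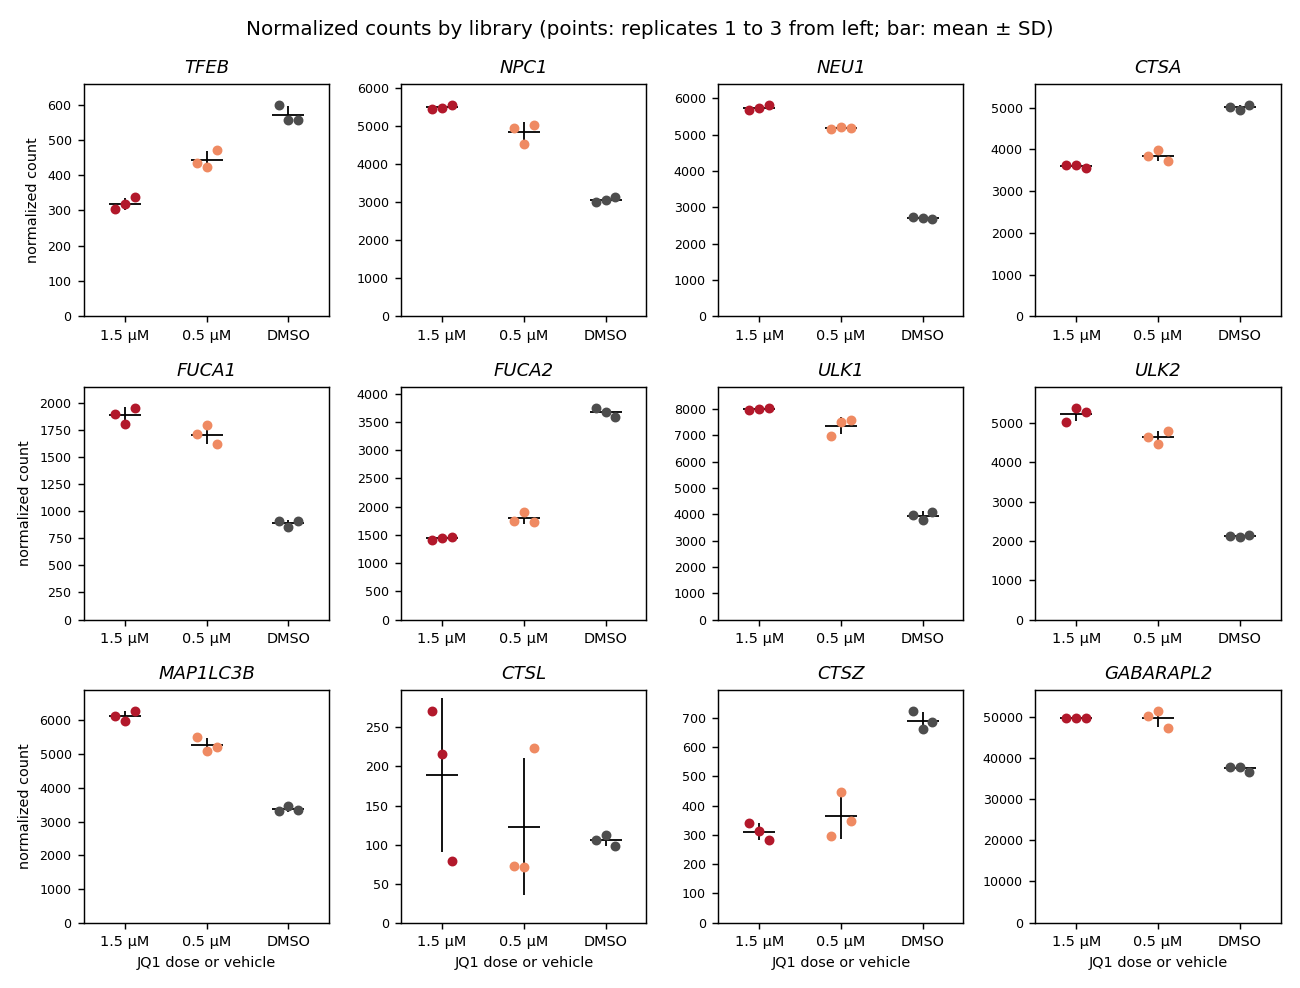
Normalized counts of 12 genes in each library (points; replicates 1 to 3 from the left) with the group mean and SD (bars), n = 3 libraries per group; each axis starts at 0. For CTSL the points of both JQ1 groups lie on either side of the DMSO points, while for the other 11 genes no JQ1 point overlaps DMSO.

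Of the 7 glycosidases, which cut sugars from glycoproteins, glycolipids and glycogen, 3 were higher and 3 lower at 1.5 µM. Of all genes tested, 36.9% were higher and 36.2% lower at this dose, and the difference was not tested. The glycosidases included the largest changes among the lysosomal proteins in both directions. FUCA1, the lysosomal alpha-L-fucosidase, had 1897, 1811 and 1956 normalized counts at 1.5 µM, 1711, 1796 and 1618 at 0.5 µM and 909, 852 and 909 in DMSO. FUCA2, the second alpha-L-fucosidase of the genome, known mainly as a secreted enzyme, had 1413, 1451 and 1463 at 1.5 µM, 1743, 1913 and 1726 at 0.5 µM and 3751, 3674 and 3596 in DMSO. The 2 fucosidases thus went opposite ways with no overlap of JQ1 and DMSO libraries: FUCA1 changed by 1.08 ± 0.052 and 0.94 ± 0.052 (adjusted p = 1.91e-08 and 8.6e-08), FUCA2 by -1.35 ± 0.045 and -1.03 ± 0.045 (adjusted p = 1.64e-09 and 1.69e-08). Per length, FUCA1 was at 14.02 ± 0.524 FPKM at 1.5 µM and 12.9 ± 0.695 at 0.5 µM, against 6.89 ± 0.258 in DMSO, and FUCA2 at 9.32 ± 0.144 and 11.8 ± 0.512, against 25.1 ± 0.701 (SD, n = 3). FUCA2 was the more abundant of the pair in all 3 DMSO libraries, and FUCA1 in all 3 libraries at 1.5 µM.

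NEU1, the lysosomal sialidase, had 5668, 5732 and 5819.7 normalized counts at 1.5 µM, 5157, 5220.2 and 5175 at 0.5 µM and 2735, 2718 and 2678 in DMSO. The libraries of each group lay close together and the 3 groups did not overlap, and NEU1 rose 2.12-fold (1.08 ± 0.028, adjusted p = 4.11e-10) and 1.91-fold (0.94 ± 0.028, adjusted p = 1.95e-09), while its partner CTSA fell. HEXA, a subunit of beta-hexosaminidase, had log2 fold changes of -0.53 ± 0.049 and -0.41 ± 0.049, and GUSB, beta-glucuronidase, of -0.39 ± 0.031 and -0.39 ± 0.031. The genome holds many GUSB-like pseudogenes, so the assignment of GUSB reads is uncertain. GAA, the acid alpha-glucosidase that breaks down glycogen, passed at 1.5 µM with 0.13 (adjusted p = 0.0188), but the sign turned on FPKM values (-0.032), and it did not pass under upper-quartile scaling (0.0815, adjusted p = 0.158) or without the 3 libraries that stand apart (0.0959, adjusted p = 0.252). The GAA call was also lost without DMSO replicate 2 (0.12, adjusted p = 0.0688) or 1.5 µM replicate 1 (0.12, adjusted p = 0.0671) or 2 (0.13, adjusted p = 0.0512). Its value at 0.5 µM passed without 0.5 µM replicate 2 (0.13, adjusted p = 0.0019). GLA, alpha-galactosidase A, had 0.091 and 0.053, which did not pass; the value at 1.5 µM passed without 0.5 µM replicate 2 (0.0905, adjusted p = 0.0365).

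Both lumenal proteins that handle lipids rose. NPC2, which hands cholesterol to NPC1, had 3488, 3519.6 and 3493 normalized counts at 1.5 µM, 3115, 3225 and 3265 at 0.5 µM and 2029, 1987 and 2031 in DMSO. It rose 1.74-fold at 1.5 µM and 1.59-fold at 0.5 µM, close to the 1.79-fold and 1.57-fold of NPC1, and no JQ1 library overlapped DMSO. PSAP, the precursor of the saposins that present lipids to hydrolases, rose by 0.24 ± 0.027 and 0.20 ± 0.027 and was the third most abundant of the 38 genes per length, with 322 ± 8.49 FPKM at 1.5 µM and 321 ± 7.13 at 0.5 µM, against 294 ± 5.96 in DMSO.

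In the initiation complex of autophagy, both kinases rose and the scaffold ATG13 stayed within 0.013 log2 units of DMSO. ULK2 had 5034, 5383 and 5279 normalized counts at 1.5 µM, 4651, 4458 and 4784 at 0.5 µM and 2119, 2101 and 2157 in DMSO. The 3 groups did not overlap, and ULK2 had the largest rise of the 38 genes, 2.46-fold at 1.5 µM (1.30 ± 0.038, adjusted p = 7.42e-10) and 2.18-fold at 0.5 µM (1.12 ± 0.038, adjusted p = 3.78e-09). ULK1, the kinase phosphorylated by both AMPK and mTORC1, rose to 7993 ± 41.3 at 1.5 µM and 7361 ± 329 at 0.5 µM, against 3940.4 ± 168 in DMSO (SD, n = 3; 1.02 ± 0.041 and 0.90 ± 0.041). ATG13 had log2 fold changes of -0.013 (adjusted p = 0.726) and 0.011 (adjusted p = 0.758), with signs that turned under some settings. Per length, ULK1, ULK2 and ATG13 together had 80.4 ± 4.64 FPKM at 1.5 µM and 77.5 ± 2.00 at 0.5 µM, against 58 ± 2.17 in DMSO.

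Changes in the class III PI3-kinase complexes and their readers were small. BECN1, the core regulatory subunit, had 5022, 5079.6 and 4915 normalized counts at 1.5 µM, 5089, 5836 and 4918 at 0.5 µM and 4455, 4347 and 4179 in DMSO. All JQ1 libraries lay above DMSO, and the rise was 0.21 ± 0.057 (adjusted p = 0.0069) and 0.28 ± 0.057 (adjusted p = 0.00121). At 1.5 µM it did not pass on FPKM values (0.092, adjusted p = 0.152) or when the 3 libraries that stand apart were left out (0.18, adjusted p = 0.0973). UVRAG, the subunit of the endosomal complex, had 1013, 942 and 909.9 at 1.5 µM, 971, 1059 and 1015 at 0.5 µM and 1035, 1104 and 1105 in DMSO. Its 1.5 µM libraries lay just below DMSO (-0.18 ± 0.057, adjusted p = 0.0146) and its 0.5 µM libraries overlapped DMSO (-0.092, but -0.146 and adjusted p = 0.0325 under upper-quartile scaling). The call at 1.5 µM was lost on FPKM values (-0.20, adjusted p = 0.0898), without DMSO replicate 2 (-0.165, adjusted p = 0.0532) or 3 (-0.164, adjusted p = 0.0504) or 1.5 µM replicate 3 (-0.146, adjusted p = 0.0634). ATG14, the subunit specific to autophagy, had -0.081 and -0.11 and passed at neither dose; the value at 0.5 µM passed without DMSO replicate 3 (-0.16, adjusted p = 0.0295) and under upper-quartile scaling (-0.16, adjusted p = 0.0297).

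Of the 2 proteins that bind PI3P on the forming membrane, WIPI2, which recruits ATG16L1, had 5239, 5159 and 5360.1 normalized counts at 1.5 µM, 5120.0, 5267 and 5216 at 0.5 µM and 4237, 4116 and 4251 in DMSO. It rose evenly at both doses (0.32 ± 0.030, adjusted p = 3.41e-06, and 0.31 ± 0.030, adjusted p = 6.24e-06). WIPI1 had 1068, 1067 and 1035 at 1.5 µM, 967, 1134 and 1032 at 0.5 µM and 1137, 1225 and 1154 in DMSO, a narrow gap with calls near the threshold (-0.15 ± 0.061, adjusted p = 0.0468, and -0.17 ± 0.061, adjusted p = 0.0293). Leaving out any 1 DMSO or 1.5 µM library, or 0.5 µM replicate 3, ended the WIPI1 call at 1.5 µM (log2 fold changes -0.117 to -0.171, adjusted p = 0.0545 to 0.162), and leaving out DMSO replicate 2 or 3 or 0.5 µM replicate 1 or 3 ended that at 0.5 µM (-0.115 to -0.179, adjusted p = 0.0517 to 0.112). Neither passed without the 3 libraries that stand apart (-0.178, adjusted p = 0.181, and -0.162, adjusted p = 0.125).

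The conjugation genes split as well. ATG7, the activating enzyme of the system, had 1167, 1135 and 1076 normalized counts at 1.5 µM, 1152, 954 and 1106 at 0.5 µM and 929, 893 and 899 in DMSO. Its JQ1 libraries lay above DMSO, 0.5 µM replicate 2 only just (0.31 ± 0.069, adjusted p = 0.00195, and 0.23 ± 0.069, adjusted p = 0.0109), and neither dose passed when the 3 libraries that stand apart were left out (0.25, adjusted p = 0.0946, and 0.21, adjusted p = 0.0736). At 0.5 µM it did not pass on FPKM values (0.155, adjusted p = 0.266) or under upper-quartile scaling (0.181, adjusted p = 0.0505). ATG16L1, which places the conjugation at the membrane, had 2149, 2050.0 and 2132 at 1.5 µM, 2014, 2097 and 2068 at 0.5 µM and 2587, 2518 and 2599 in DMSO. All 6 JQ1 libraries lay below DMSO (-0.28 ± 0.036, adjusted p = 3.62e-05, and -0.32 ± 0.036, adjusted p = 1.79e-05), and on FPKM values the fall at 0.5 µM did not pass (-0.135, adjusted p = 0.0585). The other conjugate partners, ATG5 (0.085 and 0.10) and ATG12 (-0.053 and 0.047), passed at neither dose, and ATG5 passed at both without DMSO replicate 1 (0.135, adjusted p = 0.0379, and 0.151, adjusted p = 0.0257).

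The ATG8 family, the proteins attached to the membrane, was dominated by its GABARAP branch in these cells. Per length GABARAPL2 had 829 ± 4.19 FPKM at 1.5 µM and 845 ± 41.95 at 0.5 µM, against 649 ± 12.3 in DMSO, and GABARAP 416 ± 19.05 and 453 ± 5.57, against 473 ± 9.07. These were the 2 highest levels among the 38 genes in every group, while MAP1LC3B, known as LC3B and followed most often as the autophagy marker, had 37.3 ± 0.911 and 31.5 ± 1.44, against 21 ± 0.293 (SD, n = 3). MAP1LC3A, the other LC3 gene in the count table apart from the MAP1LC3B copy, had 42.9 ± 1.76 FPKM at 1.5 µM and 47.5 ± 1.52 at 0.5 µM, against 49.5 ± 1.55 in DMSO (SD, n = 3), above MAP1LC3B in each group. MAP1LC3B had 6132, 5972 and 6281 normalized counts at 1.5 µM, 5509, 5104 and 5219 at 0.5 µM and 3303, 3452 and 3348 in DMSO. The 3 groups did not overlap, and MAP1LC3B rose 1.82-fold (0.86 ± 0.038, adjusted p = 9.15e-09) and 1.57-fold (0.65 ± 0.038, adjusted p = 1.17e-07). Its near-identical copy MAP1LC3B2 had 69.6 ± 7.46 normalized counts at 1.5 µM, 45.9 ± 14.5 at 0.5 µM and 43.6 ± 11.98 in DMSO. Reads of such copies can be assigned to either gene, so the values of MAP1LC3B2 are uncertain. How far shared reads entered the MAP1LC3B values was not tested.

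GABARAP moved the other way from GABARAPL2. GABARAP had 15377, 14693 and 14204 normalized counts at 1.5 µM, 15938, 15492 and 15907 at 0.5 µM and 16716, 16290.1 and 16083 in DMSO. It fell at 1.5 µM (-0.15 ± 0.034, adjusted p = 0.00229) and did not pass at 0.5 µM (-0.052, adjusted p = 0.191), where it passed under upper-quartile scaling (-0.106, adjusted p = 0.0286). GABARAPL2 rose by 0.41 ± 0.034 and 0.41 ± 0.034, to 49595 ± 75.2 normalized counts at 1.5 µM and 49591 ± 2117 at 0.5 µM, against 37434 ± 665 in DMSO. Within the summed FPKM of GABARAPL2, GABARAP, GABARAPL1 and MAP1LC3B, GABARAPL2 held 64.2% ± 0.842 at 1.5 µM and 63.0% ± 1.36 at 0.5 µM, against 56.3% ± 0.425 in DMSO, GABARAP 32.2% ± 0.891 and 33.8% ± 1.22, against 41.0% ± 0.404, and MAP1LC3B 2.89% ± 0.0729 and 2.35% ± 0.156, against 1.82% ± 0.0399. GABARAPL1, whose pseudogene-like copy GABARAPL3 can share its reads, had -0.0097 at 1.5 µM and 0.12 at 0.5 µM (adjusted p = 0.0376). The GABARAPL1 call at 0.5 µM was lost on FPKM values (0.0906), under upper-quartile scaling (0.0623), in DESeq2 (0.117), with the 6 libraries compared alone (0.116) and without the 3 libraries that stand apart (0.131). It was also lost without any 1 of DMSO replicates 2 and 3, 0.5 µM replicates 1 and 2 and 1.5 µM replicates 2 and 3 (log2 fold changes 0.0907 to 0.119, adjusted p = 0.0513 to 0.142). SQSTM1, the p62 receptor that links ubiquitinated cargo to ATG8 proteins, had 7328, 6963 and 7060.0 at 1.5 µM, 7084, 7220.5 and 7275 at 0.5 µM and 6000.4, 5960.1 and 6049 in DMSO, a rise of 0.25 ± 0.030 (adjusted p = 2.41e-05) and 0.26 ± 0.030 (adjusted p = 1.83e-05).

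**Figure D3:**
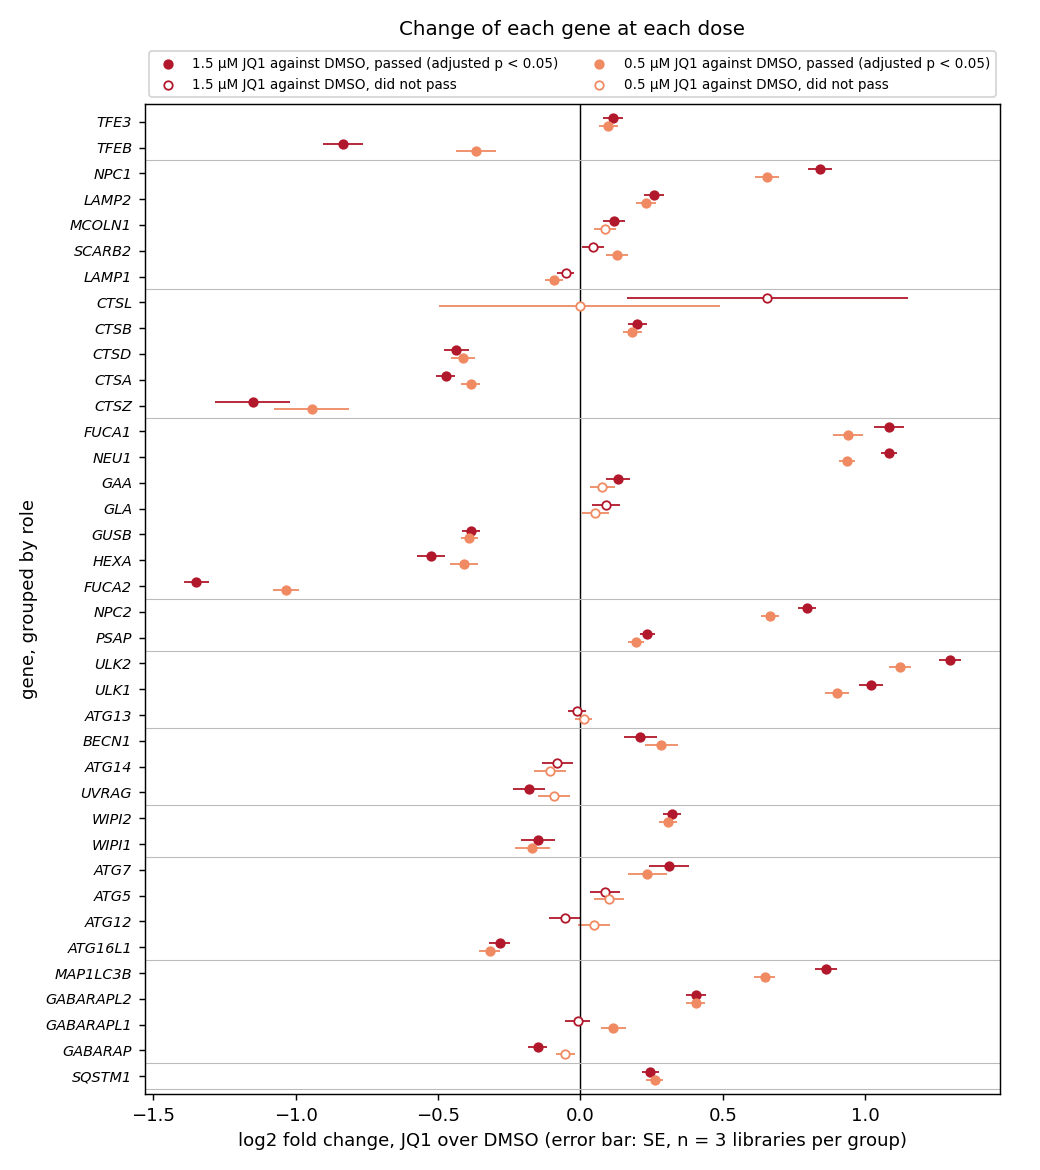
Log2 fold change of each of the 38 genes with its SE at 1.5 µM (dark red) and 0.5 µM (light red) against DMSO, 3 libraries per group; filled points passed the limma test and open points did not. The values run from -1.35 (FUCA2) to 1.30 (ULK2) at 1.5 µM and from -1.03 to 1.12 for the same genes at 0.5 µM, and CTSL has the widest error bars.

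Between the doses, 1.5 µM against 0.5 µM, 5 members were higher and 2 lower and 31 did not pass; of all genes tested, 4.66% were called higher and 8.09% lower. The 5 higher were MAP1LC3B (0.22 ± 0.038, SE, adjusted p = 0.00584), NPC1 (0.19 ± 0.042, adjusted p = 0.0187), ULK2 (0.18 ± 0.038, adjusted p = 0.0158), NEU1 (0.15 ± 0.028, adjusted p = 0.00928) and NPC2 (0.13 ± 0.032, adjusted p = 0.0288). The 2 lower were TFEB (-0.47 ± 0.070, adjusted p = 0.00278) and FUCA2 (-0.31 ± 0.045, adjusted p = 0.00223). For these 7 genes the 1.5 µM libraries lay without overlap on the far side of the 0.5 µM libraries from DMSO. The 5 genes that were higher differed by up to 1.16-fold, and each of these 5 differences was smaller than that of 0.5 µM against DMSO. FUCA2 also changed less between the doses than at 0.5 µM against DMSO (-1.03), while TFEB changed more between the doses (-0.47) than at 0.5 µM against DMSO (-0.37). Several calls rested on single libraries or settings. NPC1 was lost without any 1 of the 1.5 µM libraries (0.178 to 0.192, adjusted p = 0.0525 to 0.077), NEU1 without 1.5 µM replicate 3 (0.14, adjusted p = 0.0515) and ULK2 without 1.5 µM replicate 2 (0.155, adjusted p = 0.0778) or 3 (0.169, adjusted p = 0.0686). NPC2 was lost without DMSO replicate 2, 0.5 µM replicate 1 or any 1.5 µM library (0.109 to 0.131, adjusted p = 0.0539 to 0.106), and its sign turned on FPKM values (-0.0011). On FPKM values TFEB (-0.469, adjusted p = 0.0531), NPC1 (0.205, adjusted p = 0.095) and ULK2 (0.178, adjusted p = 0.328) did not pass between the doses. Without the 3 libraries with H19 and SLC2A3 no member passed between the doses, and 90 genes in all did, with the 1.5 µM group then at 1 library.

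Levels per length in DMSO ran from 1.22 to 649 FPKM among the 38 genes. There the highest were GABARAPL2, GABARAP and PSAP, followed by GUSB at 78.5 ± 1.33 and CTSD at 74.97 ± 0.784 FPKM. The lowest were CTSL at 1.22 ± 0.106, TFEB at 4.45 ± 0.338, UVRAG at 5.26 ± 0.480 and ATG14 at 5.38 ± 0.385 FPKM, of which UVRAG and ATG14 differed by less than their SD. Summed over the 38 genes, FPKM came to 2487 ± 35.4 at 1.5 µM and 2536 ± 49.1 at 0.5 µM, against 2305 ± 18.99 in DMSO, and GABARAPL2 and GABARAP made up a large part of that sum. The glycosidases summed to 192.2 ± 1.91 at 1.5 µM and 192.7 ± 3.14 at 0.5 µM, against 209.7 ± 3.26 FPKM in DMSO, with the rises of NEU1 and FUCA1 and the falls of FUCA2, GUSB and HEXA within the same sum.

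Other genes of the same pathways were read from 9 lists, chosen like the members with earlier results of these data known. Of all genes tested, 36.9% were higher and 36.2% lower at 1.5 µM, and 35.3% and 34.7% at 0.5 µM. Of the V-ATPase subunits, which acidify the lysosome, 12 of 21 were higher and 3 lower at 1.5 µM, and as many at 0.5 µM. ATP6V1B1 rose most, to 163 ± 7.37 normalized counts at 1.5 µM against 52.5 ± 4.98 in DMSO (1.62 ± 0.115), and ATP6V1G2, the neuronal form of subunit G, fell to 104 ± 11.5 against 203 ± 22.3 (-0.96 ± 0.126). Of 36 other lysosomal hydrolases, 21 were higher and 7 lower at 1.5 µM. ARSA, arylsulfatase A, rose to 2902 ± 54.8 against 1195 ± 48.1 (1.28 ± 0.042), and PPT1, a palmitoyl thioesterase, fell to 3662 ± 64.98 against 8739.7 ± 62.3 (-1.25 ± 0.035). Of 20 other membrane proteins, 9 were higher and 7 lower. LAPTM5, a membrane protein of blood cell lysosomes, fell to 9.42 ± 1.05 normalized counts against 189.6 ± 21.9 (-4.19 ± 0.311), and CLN3, the Batten disease protein, to 860.2 ± 38.9 against 2427 ± 24.3 (-1.497 ± 0.046).

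Of 31 regulators of mTORC1 at the lysosome, 18 were higher and 7 lower at 1.5 µM, with TBC1D7 of the TSC complex (0.93 ± 0.045) and PRKAG1, a subunit of AMPK (0.73 ± 0.080). Of 26 other core autophagy genes, 13 were higher and 7 lower. ATG2B, a lipid transfer protein, rose (1.06 ± 0.048), and ATG9B, a lipid scramblase of vesicles, fell (-1.52 ± 0.098). Of 16 other receptors of selective autophagy, 11 were higher and 3 lower, and the named falls were those of the mitochondrial receptors FKBP8 (-0.94 ± 0.042) and FUNDC1 (-0.80 ± 0.118). Of 14 genes for the fusion of autophagosomes with lysosomes, 10 were higher and 2 lower, and the named pair is STX17 (1.01 ± 0.060), the autophagosomal syntaxin, and VPS33A (-0.91 ± 0.039), a subunit of the HOPS tether. Of 10 genes for mannose 6-phosphate sorting, 7 were higher and 3 lower, with NAGPA, the enzyme that uncovers the tag, at -1.88 ± 0.088 and the sorting receptor SORL1 at -0.76 ± 0.048. The medians at 1.5 µM were 0.17 for the V-ATPase, 0.23 for the other hydrolases, 0.042 for the other membrane proteins, 0.19 for the mTORC1 regulators, 0.10 for the other core autophagy genes, 0.25 for the receptors, 0.38 for the fusion genes and 0.17 for the sorting genes, beside -0.0030 over all genes. The counts of these lists stand beside 36.9% of all genes tested that were higher and 36.2% that were lower at 1.5 µM. No list was tested against other genes. Without the 3 libraries that stand apart, 1.5 µM held 1 library. Fewer genes of each list with more than 1 tested gene were then called at that dose, as over all genes tested.

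**Figure D4:**
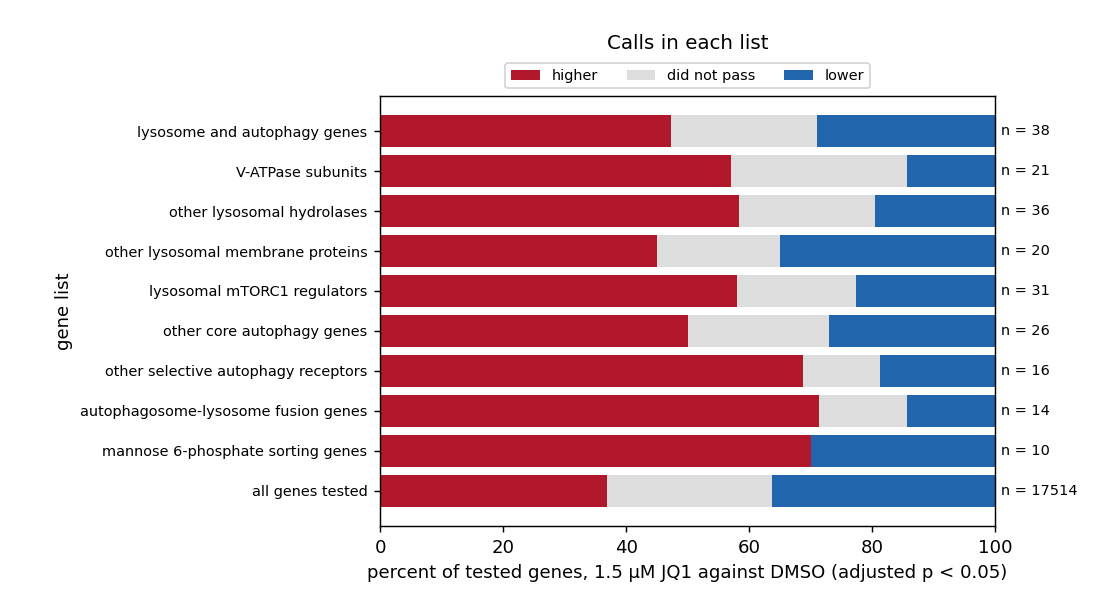
Percent of the tested genes of each list that were higher (red), did not pass (grey) or were lower (blue) at 1.5 µM against DMSO, with the number tested beside each bar. The bar of the 38 lysosome and autophagy genes shows 47.4% higher and 28.9% lower, and that of all 17514 genes 36.9% and 36.2%.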

How the data were processed

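Total RNA of COR-L279 cells was sequenced in 9 libraries, 3 per group, from stranded TruSeq libraries, per the labels. The submitters' processing notes name cutadapt, STAR, RSEM and hg19; versions, the annotation and whether counting used strand are not given in the sources here, which leaves genes with an overlapping or antisense neighbour uncertain. The authors' deposited signal is a normalized count, read counts over a DESeq2 size factor for each library. Multiplied back, 100% of values were whole reads (tolerance 0.001). The FPKM table deposited beside it comes from RSEM and lists 57820 genes to 2 decimals.

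Groups came from the sample titles. The test was limma 3.58.1 (R 4.3.3, with trend) on log2(normalized count + 1), all 9 libraries in 1 fit and no block, for genes with at least 10 normalized counts in at least 3 libraries. This scale understates changes of low genes. Two-sided p-values were adjusted over all genes of a comparison (Benjamini-Hochberg, threshold 0.05). No spike-in was used, so every change is relative to most genes. The p-values measure the spread between these libraries; the labels do not say how the biological replicates were separated.

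The members and lists were chosen with earlier results of these data known. Values in every library are given for TFEB, TFE3, the largest called rise and fall of each role at 1.5 µM and the genes called between the doses; of each other list at most 2 genes are named, with a mean of at least 50 normalized counts. IDS, with 2 rows, was left out. The fit was checked on simulated data in which few genes changed. Most genes were called against DMSO here, and the check does not cover that setting. Alternatives were pseudocounts of 0.1 and 5, no filter or a minimum of 50, FPKM (pseudocount 0.1, minimum 0.5 in 3 libraries), scaling by TMM or the upper quartile, edgeR 4.0.16 and DESeq2 1.42.0 on whole reads, limma without trend, the 6 libraries compared, a replicate block, each library left out, and the 3 libraries with H19 and SLC2A3 left out. Sequences are RefSeq's, in a newer build than the files.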

Additional observations from a re-analysis of the deposited data

How the results depend on the processing

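Under all 22 alternatives, 13 of the 18 members called higher and 9 of the 11 called lower at 1.5 µM kept their call, and 14 of 18 and 7 of 10 at 0.5 µM; between the doses 0 of 7 did, and every one of those 7 was lost without the 3 libraries with H19 and SLC2A3. That setting leaves 1 library at 1.5 µM, assumed to vary like the others. The share of all called genes that kept their call was not computed. The counts of kept calls therefore say nothing particular of the members. Upper-quartile scaling gave 15 members higher and 12 lower at 1.5 µM, beside 33.9% and 39.2% of all genes. On FPKM values 14 were higher and 10 lower at 1.5 µM, beside 29.7% and 34.8%, and 14 and 9 at 0.5 µM, beside 28.7% and 32.0%. edgeR called 12897 genes at 1.5 µM, 12240.0 at 0.5 µM and 2283 between the doses, and DESeq2 12808, 12161 and 2853, beside 12806, 12255 and 2233 in limma.

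The comparison between the doses moved most: the genes called numbered 892 on FPKM values (174 higher and 718 lower, against 816 and 1417), 1155 with the 6 libraries compared, 90 without the 3 libraries and 995 to 3217 on leaving out 1 library. Its higher members numbered 2 on FPKM values, 2 with the 6 libraries, 0 without the 3 libraries and 1 to 7 on leaving out 1, and its lower members 1, 2, 0 and 2 to 4. The largest of these counts on leaving out 1 library, 3217 genes and 7 and 4 members, came without 0.5 µM replicate 2. Without it, 14002 genes were called at 1.5 µM and 12844 at 0.5 µM against DMSO. This library had the fewest reads in genes, 60721187, and the part of read number was not tested. Signs turned for members near 0. On FPKM values these were MCOLN1 (-0.0086), GAA (-0.032), GLA (-0.0071), ATG13 (-0.013), ATG12 (-0.15) and CTSL (0.016) at 0.5 µM, GAA (-0.032) and GLA (-0.027) at 1.5 µM, and NPC2 between the doses (-0.0011). Upper-quartile scaling turned GLA (-0.00066), ATG13 (-0.043) and ATG12 (-0.0067) at 0.5 µM and SCARB2 (-0.0055) at 1.5 µM. CTSL at 0.5 µM was positive with a pseudocount of 5 (0.0047), in edgeR (0.21) and in DESeq2 (0.22), and on leaving out 1 library ran over -0.543 to 0.274; without the 3 libraries it was -0.41 at 1.5 µM. ATG13 at 0.5 µM had -0.0058 without the 3 libraries. On leaving out 1 library, ATG13 ran over -0.0058 to 0.034 and ATG12 over -0.0088 to 0.105 at 0.5 µM, and at 1.5 µM ATG13 ran over -0.021 to 0.00046 and GABARAPL1 over -0.035 to 0.016. Against DMSO, TFE3, MCOLN1, WIPI1, UVRAG, SCARB2, ATG7, GABARAPL1, BECN1 and ATG16L1 also lost a call on FPKM values. Between the doses TFEB, NPC1 and ULK2 did. The cause was not tested.

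Same-numbered libraries of different groups deviated together with correlations of -0.385 to 0.131, and not every library correlated best with its own number, so the numbers are not taken as pairs. With the replicate block, 12852 genes were called at 1.5 µM, 12329 at 0.5 µM and 2030.0 between the doses, with 18 members higher and 11 lower, 18 and 10, and 5 and 2.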

Other observations

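Some other lysosomal genes moved far and are named after their values were seen. CD63, a tetraspanin of late endosomes, stood at 5329 ± 130.7 normalized counts at 1.5 µM and 6349 ± 49.2 at 0.5 µM, against 12907 ± 311.7 in DMSO (SD, n = 3). GALC, which breaks down galactosylceramide, stood at 428 ± 24.3 and 458 ± 44.9, against 965 ± 27.6. CTSC, the protease that activates granule proteases, fell to 8622 ± 157 and 9322 ± 527.5, against 15028 ± 234 in DMSO. HGSNAT, an acetyltransferase of heparan sulfate breakdown, rose to 3324 ± 26.9 and 3236 ± 84.6, against 1623 ± 85.7, and LAMP3, the third LAMP gene, to 345 ± 13.3 and 289 ± 27.2, against 141.9 ± 14.6. LAMP1, LAMP2 and LAMP3 thus had log2 fold changes of -0.051, 0.26 and 1.28 at 1.5 µM. All 5 genes passed at both doses, with no overlap between JQ1 and DMSO libraries. Of all genes tested, 33.2% were higher and 31.9% lower at both doses. No overlap was also found for 99.3% of all genes called at 1.5 µM and 97.4% at 0.5 µM. It says nothing particular of these genes.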
